A study of Mus musculus with 4 samples.

Results

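Sost Erbb4 Mylk4 smooth muscle cells were a small set of Myh11-positive lung cells in which sclerostin, the neuregulin receptor ERBB4 and the myosin light chain kinase family member MYLK4 were transcribed above the level of the other smooth muscle cells. They were chosen by counts of unique molecular identifiers (UMIs) in each cell. A cell with 200 to 7500 genes and at most 15% mitochondrial UMIs entered the smooth muscle gate when it had at least 3 UMIs of Myh11 (smooth muscle myosin heavy chain) and none of Ptprc, Cdh5 and Epcam, the markers of immune, endothelial and epithelial cells. Within that gate a cell was a member when its UMIs of Erbb4, Sost, Mylk4, Rcan2 and Ncam1 summed to at least 3 and exceeded its sum of Timp4, Actc1, P2rx1, Sncg and Tcap as well as its sum of Hpse2, Lrrtm3, Ctnna3, Adam33 and Ntrk3. Of the 32121 cells deposited, 30860 passed the limits on cells, 6586 lay in the gate and 660 were members. The second sum was the largest in 2686 cells, called here the Timp4 Actc1 Sncg cells, the last in 2635 cells, called the Hpse2 Ntrk3 Ctnna3 cells, and 605 gated cells belonged to none of the 3 kinds.

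The lungs came from 2 WT and 2 Tubb3-/- mice, littermates of 8 to 11 weeks, all given 0.8 U/kg bleomycin into the trachea and taken at day 14, so that no uninjured lung was among them. The Tubb3-/- mice were homozygous for a Cre inserted in frame at the start of Tubb3, which encodes the microtubule protein β-III tubulin, a change carried in the germline and not limited to mural cells. Each mouse gave 1 whole-cell library, live cells depleted of red cells by TER-119, and 1 mural-enriched library, in which cells depleted of CD31, CD45, EpCAM and TER-119 were sorted into an MCAM-positive, PDGFRα-negative and an MCAM-negative fraction and mixed in equal parts, so that shares of all cells were set by the sort. Cells of the 4 mice were told apart by oligonucleotide tags within 2 pools, and no barcode was shared between libraries of a pool.

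Smooth muscle cells of vessels and airways shorten when calcium and calmodulin switch on a myosin light chain kinase, which lets myosin pull on actin filaments. Sclerostin, the product of Sost, is a secreted inhibitor of Wnt signaling that binds LRP5 and LRP6 and is best known from bone. ERBB4 is a receptor tyrosine kinase for neuregulins and HB-EGF, NCAM1 is a cell adhesion molecule that can carry polysialic acid, and RCAN2 binds and regulates the phosphatase calcineurin.

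The genes that name the cells lie far apart in the genome (mm10). Sost occupies chr11:101962458-101967015, Erbb4 chr1:68032186-69108059 and Mylk4 chr13:32700834-32783954, all on the minus strand. Ncam1 lies at chr9:49502136-49798925 on the minus strand and Rcan2 at chr17:43801351-44039516 on the plus strand. Erbb4 spans small noncoding and pseudogene annotations on its own strand, and its count is uncertain to that extent. The start-site regions of the 3 genes are shown because their transcripts were high together in these cells. They are from RefSeq (GRCm38.p6), 250 bases before to 50 bases after the gene's start, read on the minus strand at chr11:101966966-101967265 (Sost), chr1:69108010-69108309 (Erbb4) and chr13:32783915-32784214 (Mylk4). Capitals mark the letters CAGCTG, an E-box.
Sost: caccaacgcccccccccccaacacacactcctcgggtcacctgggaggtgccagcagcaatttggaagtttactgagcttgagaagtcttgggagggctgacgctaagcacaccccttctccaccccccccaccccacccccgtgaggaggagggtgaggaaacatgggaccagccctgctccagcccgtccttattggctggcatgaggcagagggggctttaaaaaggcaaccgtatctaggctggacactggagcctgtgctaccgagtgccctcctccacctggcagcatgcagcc
Erbb4: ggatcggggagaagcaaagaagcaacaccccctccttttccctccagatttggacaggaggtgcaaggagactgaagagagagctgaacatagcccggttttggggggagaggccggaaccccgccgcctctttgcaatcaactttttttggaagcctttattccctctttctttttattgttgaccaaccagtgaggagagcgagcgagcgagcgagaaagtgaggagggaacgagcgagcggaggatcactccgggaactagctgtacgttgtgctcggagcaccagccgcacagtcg
Mylk4: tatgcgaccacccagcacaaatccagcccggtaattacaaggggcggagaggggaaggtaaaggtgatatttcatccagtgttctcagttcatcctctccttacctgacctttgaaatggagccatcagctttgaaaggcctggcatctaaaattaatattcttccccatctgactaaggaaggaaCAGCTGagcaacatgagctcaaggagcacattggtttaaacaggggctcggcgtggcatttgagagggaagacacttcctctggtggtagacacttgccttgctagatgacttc
On both strands of these windows 3 motifs were searched, namely the CArG box bound by serum response factor, the E-box CAGCTG and the T-box site AGGTGTGA, which do not overlap one another. One CAGCTG was found, in the Mylk4 window, and none of the motifs in those of Sost and Erbb4. Among 32851 start-site windows of the same length, 1.63% held a CArG box, 16.3% CAGCTG and 1.28% AGGTGTGA. A match is a string of letters and not a site shown to be bound.

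The members were deeply sequenced. WT mouse 1 gave 230 members with 3667760 gene UMIs, WT mouse 2 gave 71 with 1300424, Tubb3-/- mouse 1 gave 181 with 3927949 and Tubb3-/- mouse 2 gave 178 with 3180417. A median member held 14434.5 UMIs and 3973 genes, with 31 UMIs of Myh11, 23 of the 5 genes of its own sum, 8 of the Timp4 sum and 9 of the Hpse2 sum. All but 30 members came from the mural-enriched libraries, whose median depth per cell ran from 12406 UMIs (WT mouse 2) to 16299 (Tubb3-/- mouse 1). The Scrublet method called 63 members (9.55%) doublets, 11 to 13 per WT mouse and 17 to 22 per Tubb3-/- mouse. These were 4.78% of the members of WT mouse 1 and 18.3% of those of WT mouse 2. The shares were 9.39% in Tubb3-/- mouse 1 and 12.4% in Tubb3-/- mouse 2. At the edge of the rule, 13 members had a sum of exactly 3, while 22 gated cells had a sum of 2 that was larger than the other 2 sums. The sum of 82 members exceeded the next sum by only 1 or 2 UMIs, and 86 gated cells with a sum of at least 3 fell short by 0 or 1. Exactly 3 UMIs of Myh11 were found in 44 members, and 122 further cells met every other condition with 2.

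The 5 genes of the sum chose the members, and their levels are given as a description. Levels are CPM, UMIs of a gene relative to all gene UMIs of the cells summed for that mouse, in the order WT mouse 1, WT mouse 2, Tubb3-/- mouse 1 and Tubb3-/- mouse 2. Sost had 222, 177, 150 and 141 CPM in the members, a mean of 173 ± 36.4 (SD, n = 4 mice) against means of 43.5 in the Timp4 Actc1 Sncg cells and 13.7 in the Hpse2 Ntrk3 Ctnna3 cells. Erbb4 had 240, 250, 165 and 270 CPM, against means of 43.0 and 37.4 in the other kinds. Mylk4 had 296, 195, 205 and 260 CPM, against 92.8 and 49.7. In each of the 4 mice all 5 genes were higher in the members than in either other kind, as the rule requires of their sum. Rcan2 had 449, 417, 400 and 503 CPM against means of 181 and 116, and Ncam1 had 354, 301, 329 and 393 CPM against 73.4 and 42.6. Myh11 itself, used only at the gate, had 2264, 1707, 1650 and 1814 CPM, below the Timp4 Actc1 Sncg cells (mean 2591) and above the Hpse2 Ntrk3 Ctnna3 cells (mean 1565) in every mouse, in WT mouse 2 by only 1707 against 1699.

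The transcripts were rarer in cells outside the muscle. With each cell thinned to 5000 UMIs, Sost was found in 47.7% of 646 members, 13.6% of the Timp4 Actc1 Sncg cells, 4.48% of the Hpse2 Ntrk3 Ctnna3 cells and 0.331% of 4527 immune cells. Unthinned, 67.3% of the members had a Sost UMI, and the median depth was 14657.5 UMIs in these members and 13819 in the immune cells. Erbb4 was found in 47.5% of thinned members and 0.243% of immune cells, Mylk4 in 61.6% and 0.464%, and Ncam1 in 72.8% and 0.994%. The rule itself raised these shares in the members. In the thinned Timp4 Actc1 Sncg and Hpse2 Ntrk3 Ctnna3 cells Erbb4 was found in 10.1% and 9.34% and Mylk4 in 26.7% and 14.2%. Ncam1 was found there in 20.4% and 12.3%, and Rcan2 in 47.6% and 29.0%. Rcan2 was found in 80.5% of thinned members, but also in 11.96% of the epithelial cells, so that it marked the muscle less sharply than Sost, which 0.543% of epithelial cells had. Ncam1 was found in 5.32% of endothelial cells and 6.41% of the 9474 other cells without Myh11, and Rcan2 in 4.61% of those other cells. Erbb4 was found in 1.99% of epithelial cells. Shallower cells were left out of these shares, 14 of them members.

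The 5 genes were not evenly spread over the members. All 5 were found in 276 members, 4 in 228, 3 in 71, 2 in 41 and 1 in 44. Sost, Erbb4 and Mylk4 were found together in 288 members (43.6%), while 63 (9.55%) had a UMI of none of them and were members through Rcan2 or Ncam1. These 63 were mostly cells with little Myh11. Of the 94 members with 3 to 9 UMIs of Myh11, 55 had none of the 3 genes, against 8 of the 566 with 10 or more. The 94 cells had a median of 27691 UMIs, against 13977.5 in the 566. Their summed level of Sost was 4.87 CPM against 220, and that of Acta2, smooth muscle α-actin, was 2727 against 12249. Lmod1, a smooth muscle actin nucleator, was at 43.8 CPM against 493. By contrast Cthrc1, a marker of fibrotic fibroblasts, was at 1257 CPM in the 94 cells against 99.4, and Col1a1 at 6796 against 1686. The mesothelial gene Msln was at 337 CPM against 57.5. Ncam1 differed least of the sum's genes, at 238 CPM against 382. Small groups of members carried most of these transcripts, with 45 holding at least 10 UMIs of Cthrc1, 36 of them with 3 to 9 UMIs of Myh11, and 38 holding at least 2 UMIs of the mesothelial genes Upk3b and Lrrn4, 20 of them with 3 to 9. A UMI of Pdgfra was found in 36.4% of all members. By the summed levels of these markers, the label of a smooth muscle cell held for the 566 members with 10 or more UMIs of Myh11. It did not hold for most of the other 94, which held 22.1% of the members' UMIs (15.1% and 25.6% in WT, 29.5% and 19.6% in Tubb3-/-). The 566 still included 18 members with at least 2 UMIs of Upk3b and Lrrn4. Of the 63 Scrublet doublets, 62 lay among the 566 and 1 among the 94. Several results below are given also for the 566 cells, a limit that was set after the data were seen.

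**Figure D1:**
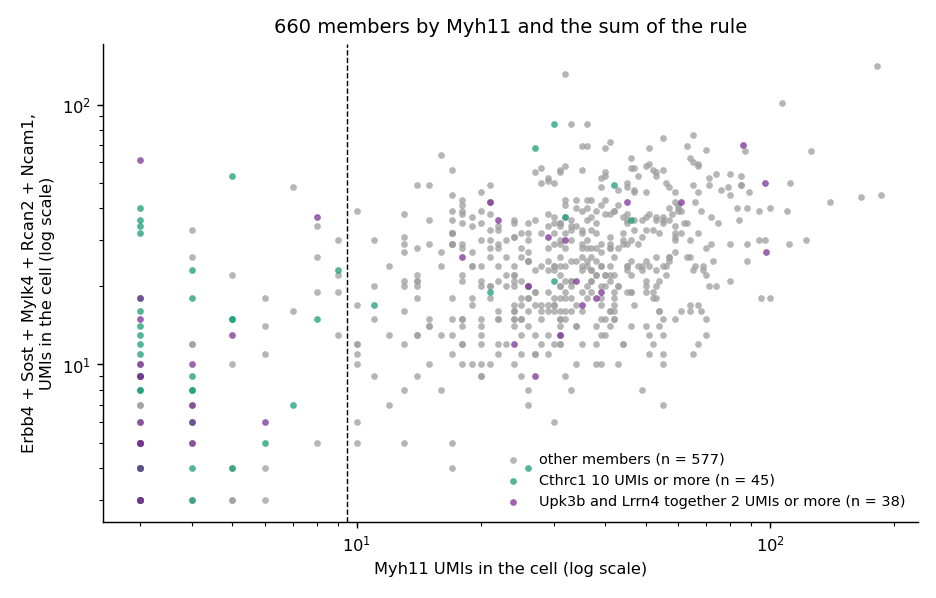
Each point is 1 of the 660 members, with its UMIs of Myh11 on the horizontal axis and its summed UMIs of Erbb4, Sost, Mylk4, Rcan2 and Ncam1 on the vertical axis, both logarithmic. The dashed line parts members with 3 to 9 from those with 10 or more UMIs of Myh11, and 36 of the 45 members with at least 10 UMIs of Cthrc1 (green) and 20 of the 38 with at least 2 UMIs of Upk3b and Lrrn4 (purple) lie on its left.

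Apart from the genes of the rule, a short list of transcripts stood above both other kinds. Since the kinds were parted by expression of the same cells, this is a description with no test. Of 7091 genes with at least 20 CPM in a kind, 686 (9.67%) were higher in the members than in both other kinds in all 4 mice and 592 (8.35%) were lower than in both. A difference of at least 2-fold in every mouse was found for 20 genes above and 33 below. Of the 20 genes furthest above, 17 also lay above both kinds in every mouse among cells with at least 10 UMIs of Myh11, the exceptions being Bmpr1b, Cmah and Fbln2. All 10 genes furthest below stayed below there.

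Dsp, which encodes the desmosome protein desmoplakin, headed the list with 47.2, 33.8, 27.2 and 34.9 CPM in the members, against means of 5.57 in the Timp4 Actc1 Sncg cells and 3.11 in the Hpse2 Ntrk3 Ctnna3 cells. Rgs7, a regulator of G protein signaling, had 63.5, 57.7, 46.8 and 68.2 CPM against 11.2 and 7.95. Uchl1, a ubiquitin hydrolase abundant in neurons, had 58.6, 46.9, 53.5 and 64.8 CPM against 17.4 and 7.63. The lowest member value of each of these genes lay above the highest value of the other kinds. Tbx18, a T-box transcription factor of developing mural cells, had 22.6, 28.5, 17.1 and 24.2 CPM against 7.33 and 4.79. Npr1, the receptor of the natriuretic peptides ANP and BNP that makes cyclic GMP, had 61.1, 60.7, 48.6 and 62.3 CPM against 22.8 and 12.9. Csrp2, a LIM-domain protein of smooth muscle, was abundant throughout, with 2072, 1273, 1897 and 1780 CPM against 803 and 476. Fbln5, which encodes an elastic fiber protein, had 245, 271, 216 and 374 CPM against 88.4 and 65.0. Others of the 20 were Bicd1, Sorbs2, Gxylt2, Bmpr1b, Gask1b, Cmah, Pdgfc, Fbln2, Itgbl1, Efna5 and Osbpl3, whose means lay 2.26-fold (Pdgfc) to 6.34-fold (Bmpr1b) above those of a single other kind. Bmpr1b had a mean of 18.5 CPM among members with at least 10 UMIs of Myh11 and of 60.0 among all members.

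The genes furthest below the other kinds included receptors of mural cells. Notch3, the Notch receptor of mural cells, had 57.8, 49.98, 42.5 and 44.6 CPM in the members against means of 221 in the Timp4 Actc1 Sncg cells and 289 in the Hpse2 Ntrk3 Ctnna3 cells. Ednrb, the endothelin B receptor, had 27.3, 17.7, 18.3 and 18.9 CPM against 126 and 78.7. Epas1, which encodes the hypoxia-inducible factor HIF-2α, had 66.5, 73.1, 42.0 and 49.7 CPM against 221 and 277. The highest member value of each lay below the lowest value of the other kinds. Slc11a1, a metal ion transporter, had 7.09, 6.92, 9.17 and 8.18 CPM against 65.6 and 56.6. Pgf, placental growth factor, had 6.82, 4.61, 18.8 and 13.2 CPM against 48.4 and 82.2. Prkcq, Cysltr1, Rtn4rl1, Lgi2 and Sbspon completed the 10, with means of 0.595 CPM (Cysltr1) to 11.7 CPM (Rtn4rl1) in the members. Among ion channels, Kcnk3, the background potassium channel TASK-1, had 49.9, 29.99, 43.3 and 39.9 CPM against means of 168 and 144, and Kcna5, a voltage-gated potassium channel, 5.45, 5.38, 4.33 and 6.29 CPM against 35.1 and 15.

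**Figure D2:**
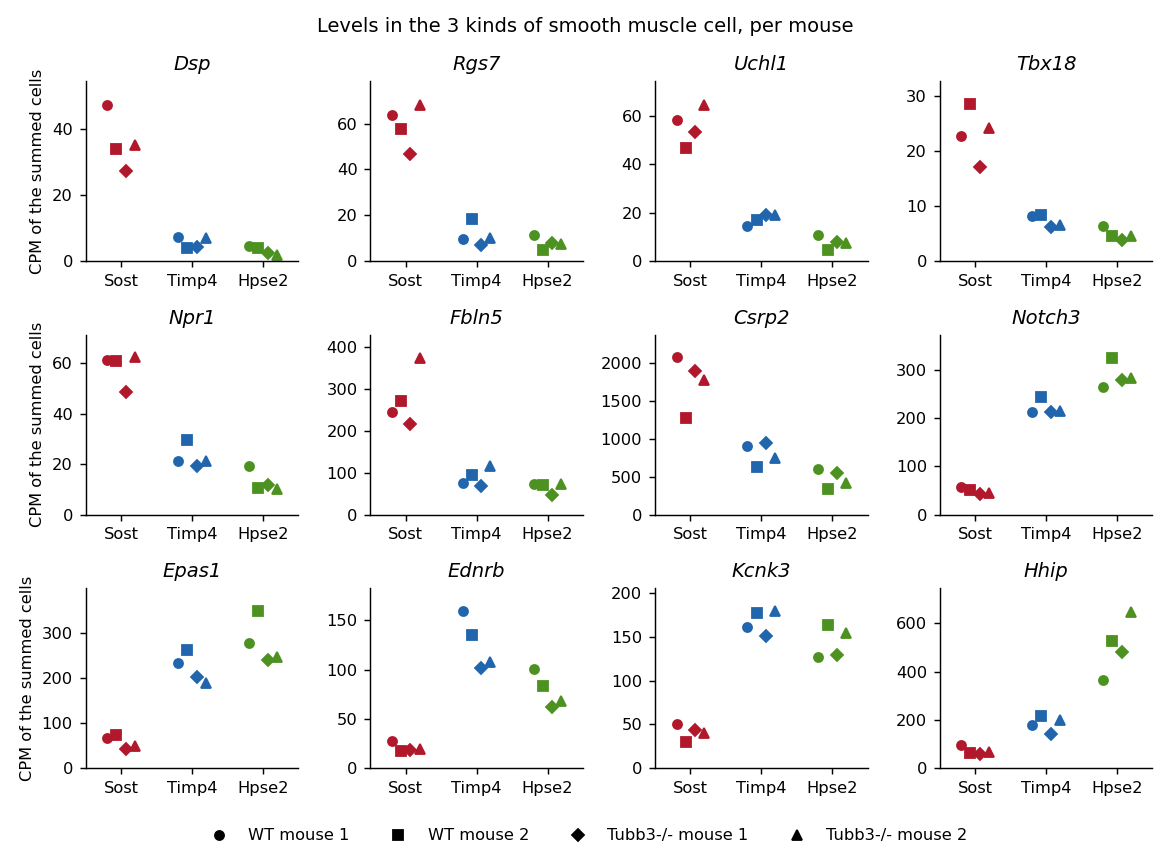
Each panel shows the CPM of 1 gene for every mouse in the Sost Erbb4 Mylk4, Timp4 Actc1 Sncg and Hpse2 Ntrk3 Ctnna3 cells. Dsp, Rgs7, Uchl1, Tbx18, Npr1, Fbln5 and Csrp2 were highest in the Sost Erbb4 Mylk4 cells of every mouse, and Notch3, Epas1, Ednrb, Kcnk3 and Hhip were lowest there.

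The genes whose levels followed the summed 5 genes most closely over the 12 sums (4 mice and 3 kinds) included Npr1 (Pearson's r = 0.989), Aebp1 (0.986), Gask1b (0.981), Tbx18 (0.981), Wwp2 (0.980), Myoz2 (0.979), Vwc2 (0.979), Dsp (0.977) and Pkp4 (0.976). The rule used the same 5 genes to part the kinds. A gene that is highest in the members can therefore correlate with them without following them from mouse to mouse. The 12 sums also share their mice and differ in depth, so that these values are a description.

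Of the contractile apparatus, 0 of 24 genes were above both other kinds in all 4 mice and 7 were below both, with the median gene 0.58 (log2) lower than in the Timp4 Actc1 Sncg cells and 0.17 higher than in the Hpse2 Ntrk3 Ctnna3 cells. Acta2 and Cnn1 lay between the kinds. Acta2 had 11491, 9046, 9868 and 9374 CPM against means of 14391 and 6650, and Cnn1, calponin, 884, 621, 801 and 708 against 1215 and 468. Des, the intermediate filament desmin, was below both at 528, 401, 589 and 490 CPM against 1712 and 816. Mylk, the principal smooth muscle myosin light chain kinase, was also below both, at 788, 697, 741 and 770 CPM against 1216 and 1034. Among the other genes of myosin light chain phosphorylation, 2 of 17 were above and 5 below. Rgs4 had a mean of 72.4 CPM against 45.9 and 28.8, whereas Rgs2 had 253 against 532 and 730 and Ppp1r12b, a subunit of myosin phosphatase, 224 against 292 and 258. None of 8 calcineurin and NFAT genes was above both or below both in all 4 mice.

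Of the ERBB receptors and ligands with at least 20 CPM, 1 of 5 was above both kinds, the ERBB4 and EGFR ligand gene Hbegf, with 112, 89.2, 85.8 and 53.8 CPM against means of 41.9 and 34.8. Erbb2, the common ERBB partner, had a mean of 5.28 CPM against 7.54 and 8.01, Erbb3 1.00 against 0.558 and 1.11, and the neuregulin gene Nrg1 9.29 against 4.38 and 4.68. Of 20 Wnt pathway genes, 5 were above both and 2 below. The secreted Frizzled-related protein gene Sfrp2 had 267, 171, 219 and 406 CPM against means of 117 and 59.5, the R-spondin receptor gene Lgr6 had 167, 128, 126 and 168 against 122 and 114, and the R-spondin gene Rspo1 had 31.9, 49.98, 15.02 and 15.1 against 7.01 and 10.6. Rspo1 was above both kinds in only 2 of 4 mice among cells with at least 10 UMIs of Myh11. The sclerostin receptors Lrp5 and Lrp6 had means of 23.5 and 80.0 CPM in the members, 26.6 and 72.8 in the Timp4 Actc1 Sncg cells and 32.3 and 92.8 in the Hpse2 Ntrk3 Ctnna3 cells. Axin2, a common target of Wnt signaling, had 11.5, 15.4, 11.5 and 13.2 CPM against means of 10.9 and 18.3, and did not part the kinds.

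Of 24 BMP pathway genes, 3 were above and 4 below. Bmp3 had a mean of 106 CPM against 84.5 and 62.5. Of 17 adhesion genes, 5 were above and 4 below both kinds. Itga8, an integrin chain of smooth muscle and myofibroblasts, had 1227, 1067, 995 and 1139 CPM against means of 847 and 641, Alcam had 174, 175, 150 and 115 against 58.3 and 70.9, and Pcdh7 and Cdh11 were above as well. Cdh4 was below both, at a mean of 11.8 CPM against 33.8 and 99.3. Of 27 ion channel and calcium genes, 5 were above, the mechanosensitive channels Piezo1 and Piezo2 among them, and 9 below. Piezo2 was above both kinds in only 2 of 4 mice among cells with at least 10 UMIs of Myh11. Of 20 receptors for vasoactive agents, 2 were above (Npr1 and the serotonin receptor gene Htr1b) and 8 below, among them Ednrb and the muscarinic receptor gene Chrm2, at 10.4 CPM against 62.2 and 46.9.

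Of 27 smooth muscle transcription factors and position genes, 4 were above both kinds and 12 below. Klf4, a regulator of the smooth muscle phenotype, had 516, 541, 356 and 326 CPM against means of 327 and 326, and Gata6, which marks vascular smooth muscle, 178, 180, 131 and 166 against 119 and 91.1. Tbx5 and Tbx2, T-box genes of the developing lung mesenchyme, were lower, at means of 31.3 CPM against 51.5 and 91.6 and of 63.8 against 101 and 143. Zfhx3 had 346 CPM against 435 and 480. Matrix genes leaned the other way, with 16 of 46 above both kinds and 3 below. Mgp, matrix Gla protein, had 21016, 23638, 25884 and 31262 CPM against means of 19066 and 21636, whereas Aspn, asporin, had 162, 98.4, 125 and 208 against 351 and 763. Of 23 immediate-early and stress genes, 5 were above and 5 below. These counts stand beside the 9.67% and 8.35% of all genes. Among cells with at least 10 UMIs of Myh11 they were 14 above and 5 below for matrix genes, 5 and 9 for transcription factors and 2 and 7 for contractile genes. Of all 7091 genes, 587 were above and 609 below both kinds in those cells.

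Markers of other cells were as follows. Pericyte markers summed to 401 to 487 CPM per mouse in the members, against 689 to 786 in the Timp4 Actc1 Sncg cells and 965 to 1285 in the Hpse2 Ntrk3 Ctnna3 cells. Higd1b, a defining pericyte gene, was at 4.13 CPM against 7.27 and 39.5. Markers of airway smooth muscle and peribronchial cells summed to 699 to 1037 CPM against 1953 to 2238 and 1618 to 2594, and Hhip among them had 93.8, 61.5, 58.6 and 67.0 CPM against means of 184 and 506. Fibroblast markers summed to 5912 to 11313 CPM against 3407 to 5538 and 4409 to 6749, with 5 of 12 above both kinds in every mouse, and to 4885 to 6644 in members with at least 10 UMIs of Myh11. Mesothelial markers summed to 147 to 674 CPM against 45.3 to 107 and 47.7 to 241, and to 55.8 to 124 in members with at least 10 UMIs of Myh11. Immune markers summed to 61.3 to 78.2 CPM, against 84.8 to 99.8 and 83.6 to 106. Endothelial markers summed to 44.6 to 92.8 CPM, above both other kinds in every mouse (26.7 to 38.0 and 25.9 to 48.7), and epithelial markers to 289 to 565 against 287 to 437 and 309 to 741. Markers of the cardiomyocytes of pulmonary veins summed to 86.5 to 129 CPM in the members, against 105 to 264 and 56.4 to 84.5, with Nkx2-5 at 0 in the members and in the Hpse2 Ntrk3 Ctnna3 cells. Red cell markers summed to 11.6 to 13.8 CPM in 3 mice and 1791 in Tubb3-/- mouse 1. The part of these transcripts in the differences between kinds was not tested.

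Of the gated smooth muscle cells, members made up 12.8% and 6.34% in WT mice, against 9.34% and 10.3% in the mutants. Both Tubb3-/- values lay between the WT values. The mean share was 9.59% ± 4.59 (SD, n = 2) in WT and 9.80% ± 0.646 (n = 2) in Tubb3-/- mice, a difference of 0.209 percentage points that was smaller than the spread between mice (two-sided exact permutation test, p = 1, where 2 against 2 mice cannot give less than 0.33). Thinned to 5000 UMIs per cell, the shares were 12.8%, 6.61%, 8.89% and 10.9%. Within the mural-enriched libraries the difference was -0.0864 percentage points, and within the whole-cell libraries, with 2 to 18 members per mouse, 2.85.

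The study asked what loss of β-III tubulin does to mural cells of the injured lung. Tubb3 itself had 9.82 and 3.08 CPM in WT members, against 0.255 and 0.943 in Tubb3-/- members, from 44 UMIs in 22 members (14 and 4 in WT, 1 and 3 in Tubb3-/- mice). Every Tubb3-/- value lay below every WT value, in the direction of the labels (log2 fold change -3.60, SE 0.78, adjusted p = 0.224 in edgeR's quasi-likelihood test). Tubb3 passed the filter on low counts only through the WT mice, the group where it was high. The 3′ tags of the kit lie outside the insertion at the start of the gene, and part of Tubb3 overlaps Gm20388 on the same strand. The inserted Cre had 0 UMIs in every member.

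Between Tubb3-/- and WT members, 3 of 11862 genes tested were called higher (0.0253%) and 0 lower, by edgeR's quasi-likelihood test on UMIs summed per mouse at an adjusted p under 0.05. At an unadjusted p under 0.05, 473 genes were higher (3.99%) and 657 lower (5.54%), together 9.53% of all, and DESeq2 called 22 higher and 42 lower. The called genes were Fst, Thbs4 and Zfp804a. Fst (chr13:114452290-114458951), which encodes the activin and BMP antagonist follistatin, had 24.5 and 19.2 CPM in WT and 113 and 97.2 CPM in Tubb3-/- members (log2 fold change 2.23, SE 0.20, adjusted p = 0.0195 in edgeR). Thbs4 (chr13:92751590-92794818), the matrix glycoprotein thrombospondin 4, had 8.45 and 4.61 CPM against 71.3 and 116 (3.68, SE 0.33, adjusted p = 0.0195). Zfp804a (chr2:82053222-82259879), a zinc finger protein gene, had 1.09 and 0.769 CPM against 23.9 and 41.5 (4.96, SE 0.48, adjusted p = 0.0222). The groups did not overlap for any of the 3, but few cells carried them. Of 869 Fst UMIs, 66.3% lay in members with 3 to 9 UMIs of Myh11. Of 686 Thbs4 UMIs, found in 71 members, 85.9% lay in the 10 members with most. Of 231 Zfp804a UMIs, in 15 members, 100 lay in 1 cell and 96.5% in members with 3 to 9 UMIs of Myh11. Zfp804a passed the filter on low counts only through the Tubb3-/- mice, the group where it was high. Without Scrublet doublets edgeR called 0 genes, and 0 in the thinned cells as well.

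Among members with at least 10 UMIs of Myh11, none of the 3 was called. Fst had 13.2, 14.5, 32.1 and 58.3 CPM there (log2 fold change 1.70, adjusted p = 0.173 in edgeR), Thbs4 had 6.10, 6.20, 34.7 and 86.0 CPM (3.25, adjusted p = 0.0747), and Zfp804a, with 3, 0, 5 and 0 UMIs, was not tested. Instead 4 genes were called higher and 2 lower. The members with at least 10 UMIs of Myh11 included 62 of the 63 Scrublet doublets, and their comparison was not repeated without doublets. Piezo2, a mechanosensitive ion channel, had 14.5 and 12.4 CPM in WT and 51.3 and 52.8 CPM in Tubb3-/- mice (1.88, adjusted p = 0.0382). Adam12, a metalloprotease of activated mesenchymal cells, had 6.10 and 6.20 CPM against 30.3 and 34.8 (2.37, adjusted p = 0.0382). Cemip, which takes part in the breakdown of hyaluronan, had 4.18 and 2.07 CPM against 31.1 and 24.6, and Lgals7, a galectin gene, 0.321 and 0 CPM against 10.8 and 16.8, from 1, 0, 30 and 43 UMIs. The cytokine gene Il6 had 128 and 181 CPM in WT and 61.8 and 55.1 CPM in Tubb3-/- mice (-1.38, adjusted p = 0.0425), and the lincRNA Gm26532, which holds Mir24-2 on its strand, 132 and 133 against 64.3 and 67.7 (-1.02, adjusted p = 0.0425). These UMIs, too, lay in few cells for some of the genes. Over all members, the 10 with most held 85.8% of the 120 Lgals7 UMIs, 73.7% of the 391 of Cemip, with 118 in 1 cell, and 62.5% of the 557 of Adam12. They held 42.2% of the 1184 Il6 UMIs, 37.7% of the 1123 of Piezo2 and 11.9% of the 1136 of Gm26532. With at least 10 UMIs of Myh11, 12 members had Lgals7, 33 Cemip and 31 Adam12. Lgals7 and Cemip passed the filter on low counts there only through the Tubb3-/- mice, the group where they were high. Among all members the same 6 genes were not called, with Piezo2 at a log2 fold change of 1.64 (adjusted p = 0.153) and Il6 at -1.21 (adjusted p = 0.170). Leaving out also the cells with 2 or more UMIs of Upk3b and Lrrn4 gave 7 calls, Adam12, Cemip, Hp, Piezo2 and Thbs4 higher and Gm26532 and Il6 lower. Of 918 Hp UMIs over all members, 407 lay in 1 cell.

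The genes next in order were not called and are given as values. Lpl, lipoprotein lipase, had 70.9 and 73.1 CPM in WT and 177 and 154 CPM in Tubb3-/- members (adjusted p = 0.0799 in edgeR), Igf1, insulin-like growth factor 1, 107 and 103 against 240 and 227 (0.0799), and Angptl4, an inhibitor of lipoprotein lipase, 37.9 and 41.5 against 81.5 and 84.6 (0.135). On the lower side, Kcnd2, a voltage-gated potassium channel gene, had 40.6 and 102 CPM against 4.33 and 5.35 (0.0799), with 77.5% of its 315 UMIs in members with 3 to 9 UMIs of Myh11. Icam1, a leukocyte adhesion molecule, had 114 and 136 CPM against 51.9 and 64.5 (0.147), Irf1, an interferon-induced transcription factor, 258 and 194 against 97.5 and 99.0 (0.153), Fbxo33, an F-box gene, 110 and 133 against 58.8 and 65.4 (0.170) and Adamtsl1 127 and 228 against 45.6 and 56.6 (0.145). These genes were named on the condition that their values did not overlap between the genotypes among all members. Of all genes tested, 20.8% met that condition on the higher side and 20.3% on the lower side. Among members with at least 10 UMIs of Myh11 the values of Lpl (71.6, 78.6, 169 and 64.9 CPM), Kcnd2 (13.2, 1.03, 5.06 and 5.87) and Fbxo33 (90.6, 42.4, 51.7 and 43.4) overlapped. There Igf1 had 104, 82.7, 161 and 174 CPM (log2 fold change 0.80, adjusted p = 0.173 in edgeR), Angptl4 26.3, 39.3, 53.8 and 44.98 (0.67, 0.503) and Icam1 98.0, 71.3, 39.7 and 48.1 (-1.01, 0.173). Irf1 had 269, 184, 124 and 105 CPM in these members (-1.02, 0.173), and Adamtsl1 71.0, 36.2, 35.0 and 35.98 (-0.73, 0.582), the latter with WT mouse 2 next to the Tubb3-/- mice.

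**Figure D3:**
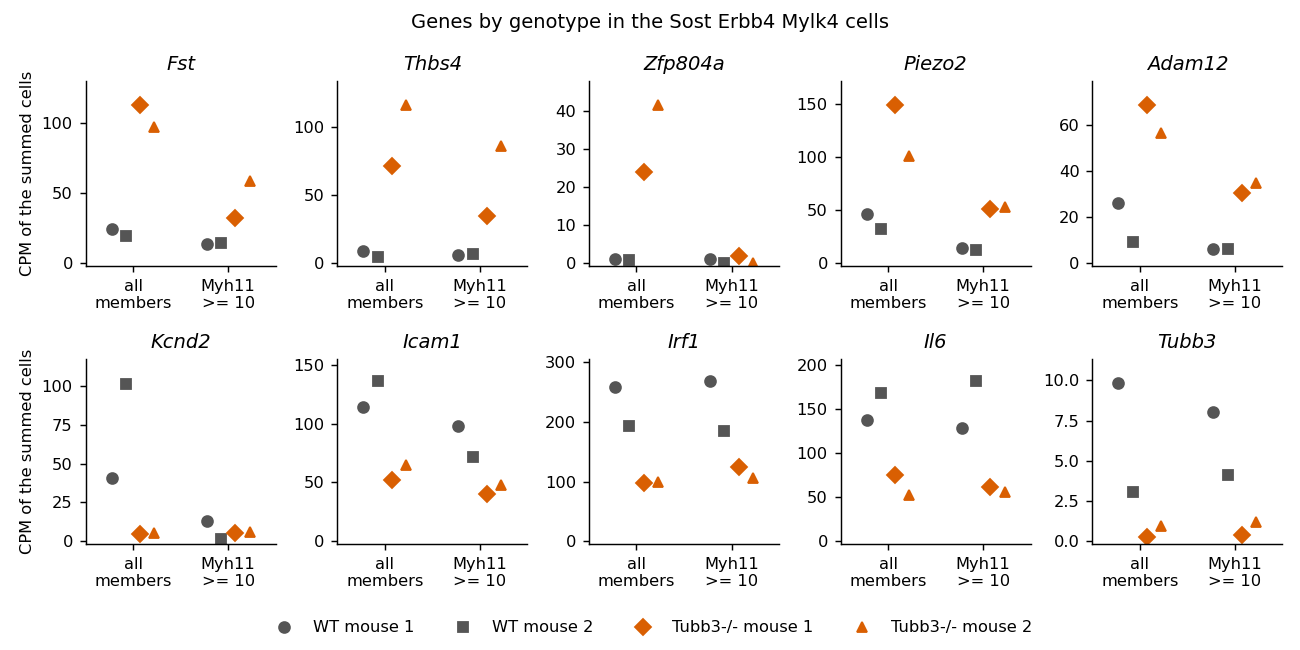
Each panel shows the level of 1 gene in CPM for every WT and Tubb3-/- mouse, in all members and in members with at least 10 UMIs of Myh11. Fst, Thbs4 and Zfp804a were higher in both Tubb3-/- mice among all members, Zfp804a was close to 0 in members with at least 10 UMIs of Myh11, and Piezo2 and Il6 were parted by genotype in both sets.

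The 5 genes of the sum chose the cells, so that no test between the genotypes is drawn for them, and their levels are those given above. Of the genes that the study names for vascular smooth muscle cells and pericytes, none was called here. Klf4 had 516 and 541 CPM in WT and 356 and 326 CPM in Tubb3-/- members (-0.61, SE 0.15, adjusted p = 0.246). Col1a1 had 2114 and 1377 CPM against 3993 and 2762 (0.96, adjusted p = 0.304), and Fn1, fibronectin, 1202 and 1008 against 2531 and 1636 (0.93, adjusted p = 0.265), with 53.4% and 53.0% of their UMIs in members with 3 to 9 UMIs of Myh11. Acta2 had a log2 fold change of -0.08 (SE 0.19, adjusted p = 0.935), Bmpr2 of -0.28 (0.646), Col18a1 of 0.19 (0.800), Rgs5 of -0.76 (0.692), Cxcl10 of -0.94 (0.426) and the cell cycle regulator gene Foxm1, with 31 UMIs in all, of 3.22 (0.265). Foxm1 passed the filter on low counts only through the Tubb3-/- mice, the group where it was high. Among members with at least 10 UMIs of Myh11 the log2 fold changes were -0.65 for Klf4 (adjusted p = 0.173 in edgeR), 0.65 for Col1a1 (0.180), 0.54 for Fn1 (0.381), -0.11 for Acta2 (0.967), -0.25 for Bmpr2 (0.884), 0.24 for Col18a1 (0.874), -0.33 for Rgs5 (0.941) and -1.76 for Cxcl10 (0.441), and Foxm1 was not tested. Cxcl10, an interferon-induced chemokine gene, had 74.4, 108, 63.1 and 27.7 CPM among all members, and without Tubb3-/- mouse 1 it was called (-1.70, adjusted p = 0.00085), as without a filter on low counts. Some calls of the others also rested on 1 choice. Leaving out WT mouse 1 gave a call of Col1a1 (1.34, adjusted p = 0.0289) and leaving out WT mouse 2 a call of Rgs5 (-1.36, adjusted p = 0.0423), whose log2 fold change was 0.80 without WT mouse 1. Fn1 was called by DESeq2 (adjusted p = 0.0119) and Col1a1 with the replicate number as a block (adjusted p = 0.0225). Without a filter on low counts Klf4, Col1a1, Fn1, Rgs5, Foxm1, Tubb3 and Ccl2 were called as well. In Tubb3-/- vascular smooth muscle cells the study reports a tendency to lower Klf4 and Bmpr2 and to higher Foxm1, Col1a1 and Fn1. It also reports no change of Acta2 and lower Ccl2. Klf4, Bmpr2, Foxm1, Col1a1 and Fn1 had the same directions among all members, with none of them called in the main comparison. Among all members the log2 fold change of Ccl2 was 0.94 (adjusted p = 0.558 in edgeR), with overlapping values. It was 0.55 (0.947) with at least 10 UMIs of Myh11, and -0.40 (0.957) without Upk3b and Lrrn4 cells as well.

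None of the genes of the matrix and the immediate-early lists was called. Of 46 matrix and fibrosis genes, 20 were higher in Tubb3-/- members at an unadjusted p under 0.05 and 4 were lower. Of all genes tested 3.99% were higher and 5.54% lower at that p. The median log2 fold change of the list was 0.41 beside 0.01 over all genes tested. For 30 of the 46 the Tubb3-/- values both exceeded the WT values, as they did for 20.8% of all genes. Ltbp2, which binds elastic fibers, had 109 and 63.1 CPM in WT and 276 and 220 CPM in Tubb3-/- members (log2 fold change 1.499, adjusted p = 0.170 in edgeR). Col8a1 had 64.1 and 18.5 CPM against 150 and 124, and Timp1, an inhibitor of matrix metalloproteases, 404 and 118 against 780 and 592. In members with at least 10 UMIs of Myh11, 16 of the 46 were higher and 3 lower at an unadjusted p under 0.05, where 2.86% and 3.71% of all genes were, with a median of 0.23 and 26 of the 46 above without overlap, beside 20.5% of all genes. Fibroblast markers summed to 7163 and 5912 CPM in WT and 11313 and 8463 in Tubb3-/- members. With at least 10 UMIs of Myh11 the sums were 5309 and 4885 against 6644 and 6556, and their part in the matrix list was not tested.

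Of 23 immediate-early and stress genes, 0 were higher and 7 lower at an unadjusted p under 0.05, beside 3.99% and 5.54% of all genes. Their median was -0.35. For 17 of the 23 the Tubb3-/- values were both under the WT values, as they were for 20.3% of all genes. The AP-1 gene Fosb had 1479 and 1127 CPM in WT and 725 and 848 CPM in Tubb3-/- members, Atf3 had 1400 and 1037 against 730 and 755, and Gadd45b 874 and 549 against 442 and 356. Myc had 56.4 and 40.0 CPM against 27.2 and 31.8. In members with at least 10 UMIs of Myh11, 12 of the 23 were lower and 2 higher at an unadjusted p under 0.05. Of all genes there 3.71% were lower and 2.86% higher. The median was -0.32, and 16 of the 23 lay below without overlap, beside 15.1% of all genes.

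**Figure D4:**
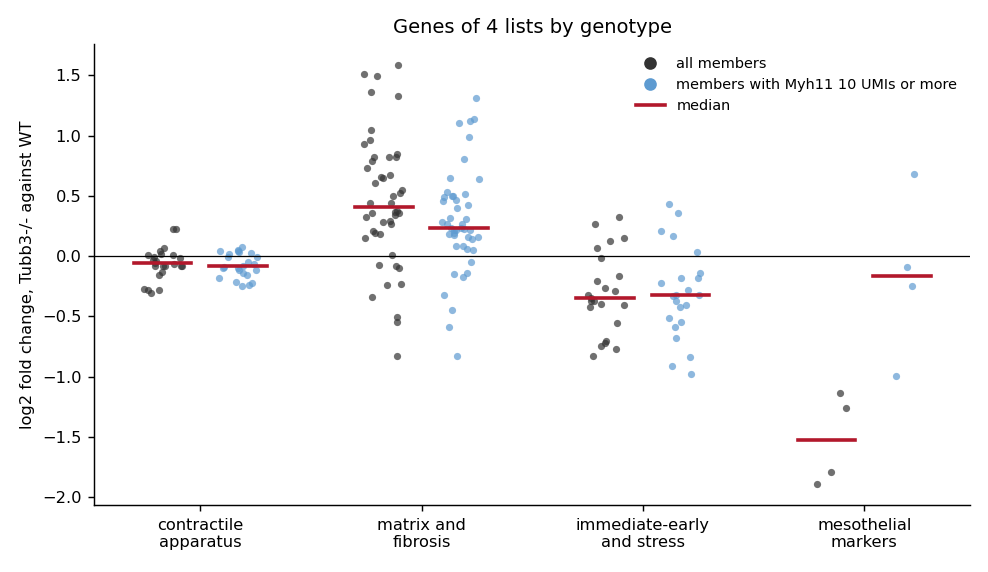
Each point is the log2 fold change of 1 gene, Tubb3-/- against WT, in all members and in members with at least 10 UMIs of Myh11, for 4 gene lists, with the median as a bar. Matrix genes had medians of 0.41 and 0.23, immediate-early genes of -0.35 and -0.32, contractile genes of -0.06 and -0.08 and the 4 mesothelial genes of -1.53 and -0.17.

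Other lists gave these counts, to be read beside the shares of all genes at an unadjusted p under 0.05. Those shares were 3.99% higher and 5.54% lower in all members, and 2.86% and 3.71% with at least 10 UMIs of Myh11. Of 24 contractile genes, 0 reached that p in either direction, with a median of -0.06. For 2 of them the Tubb3-/- values were both under the WT values, beside 20.3% of all genes. Of 34 Wnt pathway genes, 6 were higher and 1 lower at that p, and of 27 BMP pathway genes 6 were higher, Fst among them, and 6 lower. Rspo1 was the lower Wnt gene, with 31.9 and 49.98 CPM against 15.02 and 15.1 (log2 fold change -1.36, adjusted p = 0.170 in edgeR), and among members with at least 10 UMIs of Myh11 its log2 fold change was -0.51. The Wnt antagonist gene Dkk2 had 15 and 6.15 CPM against 35.1 and 25.5 (1.35, adjusted p = 0.265). Of 26 interferon and chemokine genes, 3 were higher and 5 lower, and of 15 cell cycle genes 5 were higher and 1 lower, with a median of 0.66. Among members with at least 10 UMIs of Myh11, 9 cell cycle genes passed the filter, 5 of them higher at that p and 0 lower, with a median of 0.91. The 2 red cell genes that passed the filter had a median of 5.87 and overlapped between the genotypes, their UMIs lying mostly in Tubb3-/- mouse 1. All 4 mesothelial genes were lower at that p among all members, with a median of -1.53, and Upk3b had 64.3 and 235 CPM in WT and 30.8 and 44.3 CPM in Tubb3-/- members. Among members with at least 10 UMIs of Myh11, 0 of the 4 were lower and 1 higher, with a median of -0.17. The share of members with 3 to 9 UMIs of Myh11 differed between mice as given above, and its part in the genotype differences was not tested.

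Whether the genotype difference was the same in the 3 kinds was tested with a term for kind by genotype, the mouse as a block, on 12 sums and 14176 genes. The kinds share their mice and are not independent. Against the Timp4 Actc1 Sncg cells 0 genes were called (930 at an unadjusted p under 0.05, 6.56%, and 3 by DESeq2). The genes called in the members had 16.2, 11.7, 67.7 and 49.9 CPM (Fst) and 4.22, 6.19, 49.1 and 33.3 CPM (Thbs4) in those cells, the same direction as in the members. Zfp804a had 0.777, 0.344, 3.81 and 1.70 CPM there. Against the Hpse2 Ntrk3 Ctnna3 cells 3 genes were called (0.0212%), with 945 at an unadjusted p under 0.05 (6.67%). Sema3c, a secreted semaphorin, had 83.7, 112, 65.9 and 74.8 CPM in the members and 95.4, 89.8, 236 and 231 CPM in the Hpse2 Ntrk3 Ctnna3 cells, so that its log2 fold change was lower in the members by 1.73 (SE 0.18, adjusted p = 0.0321 in edgeR). Ccl2, the monocyte chemokine, had 22.4, 10.8, 47.6 and 20.8 CPM in the members and 110, 74.3, 66.2 and 24.2 CPM in the other cells. Its log2 fold change was higher in the members by 2.06 (SE 0.25, adjusted p = 0.0459). Of the 349 Ccl2 UMIs in the members, 57.9% lay in the 10 members with most and 61 in 1 cell. Fst had 70.8, 61.1, 155 and 123 CPM in the other cells, and its log2 fold change was higher in the members by 1.22 (SE 0.15, adjusted p = 0.0459). Among cells with at least 10 UMIs of Myh11 none of these 3 differences was called (adjusted p = 0.0609, 0.406 and 0.870), and without Tubb3-/- mouse 1 each had an adjusted p of 0.242.

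In each kind compared on its own, 77 genes were called higher and 47 lower of 13284 in the Timp4 Actc1 Sncg cells, and 22 higher and 8 lower of 13951 in the Hpse2 Ntrk3 Ctnna3 cells, from 2686 and 2635 cells of the same mice. The matrix list had a median log2 fold change of 0.41 in the members, 0.48 in the Timp4 Actc1 Sncg cells, with 13 of 46 genes called higher, and 0.31 in the Hpse2 Ntrk3 Ctnna3 cells. At an unadjusted p under 0.05, 31 matrix genes were higher in the Timp4 Actc1 Sncg cells (beside 6.38% of all genes) and 21 in the Hpse2 Ntrk3 Ctnna3 cells (beside 6.32%). For the immediate-early list the medians were -0.35, -0.31 and -0.42, with 12 of 23 genes lower in the Timp4 Actc1 Sncg cells (beside 5.89% of all genes) and 15 in the Hpse2 Ntrk3 Ctnna3 cells (beside 8.18%).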

How the data were processed

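The authors deposited UMI counts per gene and cell, whole numbers with no normalization, for 8 tagged libraries of 4 mice in 2 pools, made with Cell Ranger 7.1.0 on mm10 with a Cre gene added. Whether the counting used strand is not given in the sources used here. Tag counts were set aside. Of 32286 gene IDs, 32235 matched GENCODE vM21, which gave the coordinates.

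Cells were kept at 200 to 7500 genes and at most 15% mitochondrial UMIs, and gated as described. UMIs were summed per mouse over both libraries. CPM divides a sum by its gene UMIs, and ratios between kinds used a pseudocount of 1 CPM. Genotypes were compared by the quasi-likelihood F test of edgeR 4.0.16 (R 4.3.3), after filterByExpr and TMM, with adjustment by Benjamini-Hochberg across every gene tested and a threshold of 0.05, with 2 mice per genotype, and DESeq2 1.42.0 was an alternative. Shares were compared by an exact permutation test over mice. Doublets were scored with Scrublet in scanpy 1.11.5 and kept in the main comparison. On simulated counts for the genotype comparison over 11601 genes, 57% of genes changed by 1 (log2) were called. Of those changed by 2, 96% were called, and 11 unchanged genes were called. The changed genes were drawn only from those above a minimum count, and sums per mouse were simulated, not cells. The percentages do not cover genes with few UMIs or with UMIs in few cells. Levels were counting results of 1300424 to 3927949 UMIs per mouse, and a spread between 2 mice limits the precision.

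The members and gene lists were chosen with earlier results of these data known. The genes named were those of the rule, those the study names for mural cells, the called genes and the 6 with the smallest p in each direction (mean of at least 10 CPM, no overlap between genotypes), the 20 furthest above and 10 furthest below both other kinds (at least 20 CPM), the 10 most alike, and examples of each list. Genes called only in an alternative were named after their values were seen. Alternatives changed the doublets, depth, libraries, normalization, filters, the minimum sum, the block and the mice. The limits of 10 UMIs of Myh11 and 2 of Upk3b and Lrrn4 were chosen after seeing the data. The haemoglobin genes have near-identical copies, and the counts of Erbb4, Kcnd2, Adamtsl1, Gm26532, Tubb3, Foxm1 and Bmpr2 are uncertain where other genes overlap them on the same strand. Some genes that these rules select are not reported here.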

Additional observations from a re-analysis of the deposited data

Results flagged for a closer look

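Between the members and the Hpse2 Ntrk3 Ctnna3 cells, the log2 fold change of Tubb3-/- against WT mice differed in 3 genes by the kind by genotype term of edgeR's quasi-likelihood test. The difference, members minus Hpse2 Ntrk3 Ctnna3 cells, was -1.73 for Sema3c (adjusted p = 0.0321), 2.06 for Ccl2 (adjusted p = 0.0459) and 1.22 for Fst (adjusted p = 0.0459). Sema3c was at a log2 fold change of -0.44 in the members and 1.31 in the other cells, Ccl2 at 0.94 and -1.05, and Fst at 2.23 and 1.05. Over the alternatives the adjusted p of Sema3c ran from 1.09e-27 without a filter on low counts to 0.242 without Tubb3-/- mouse 1. In members, 33.2% of Sema3c, 39.5% of Ccl2 and 66.3% of Fst UMIs lay in cells with 3 to 9 UMIs of Myh11, against 22.1% of all their UMIs, and the part of these cells in the differences was not tested. Without Scrublet doublets, Sema3c was called together with Dcn and Kcnd2, and Ccl2 (adjusted p = 0.357) and Fst (0.224) were not.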

How the results depend on the processing

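The count of 3 genes called between genotypes moved with most choices. It was 1 at a minimum sum of 5, 0 in thinned cells, 0 without Scrublet doublets, 0 in the whole-cell libraries (1167 genes tested), 2 in the mural-enriched libraries, 6 with at least 10 UMIs of Myh11, 7 without Upk3b and Lrrn4 cells as well, 64 by DESeq2 and 501 without a filter on low counts (206 higher, 295 lower). With the replicate number as a block it was 23 (16 higher, 7 lower), the 3 genes among them. Number 1 mice of the genotypes deviated together with a correlation of 0.057 over 11862 genes, so that the numbers were not taken as pairs. Leaving out 1 mouse gave 16 (without WT mouse 2) to 209 genes (without WT mouse 1), 28 without Tubb3-/- mouse 2 and 110 without Tubb3-/- mouse 1, with the lone mouse assumed to vary like the others. All 4 included the 3 genes. Against the Timp4 Actc1 Sncg cells the count of 0 became 3 by DESeq2, 1 in the mural-enriched libraries and 202 without a filter, and stayed 0 without any 1 mouse. Against the Hpse2 Ntrk3 Ctnna3 cells the count of 3 became 15 by DESeq2 and 237 without a filter, and was 0 without WT mouse 2 or Tubb3-/- mouse 1, 9 without Tubb3-/- mouse 2 and 25 without WT mouse 1. With at least 10 UMIs of Myh11 it was 3, with 0 genes shared.

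The share of members differed by -0.0864 percentage points in the mural-enriched libraries and by -3.04 (without WT mouse 2) to 3.46 (without WT mouse 1) when 1 mouse was left out. Erbb4, Mylk4, Rcan2 and Ncam1 belong to the sum that chose the cells, so that their genotype values are a description and not a test. Their log2 fold changes in the main comparison were -0.16 (Erbb4), -0.085 (Mylk4), 0.073 (Rcan2) and 0.15 (Ncam1). The sign turned for Erbb4 (0.20 thinned), Mylk4 (0.041 thinned, 0.18 in whole-cell libraries), Rcan2 (-0.019 without doublets) and Ncam1 (-0.021 thinned). Log2 fold changes also turned for Ccl2 (-0.40 without low Myh11 and Upk3b and Lrrn4 cells), Col1a1 (-0.28 in whole-cell libraries), Adamtsl1 (0.21 without low Myh11 and Upk3b and Lrrn4 cells, 0.38 thinned) and Fbxo33 (0.21 thinned). When 1 mouse was left out they ran from -0.53 to 0.13 (Erbb4), -0.38 to 0.29 (Mylk4), -0.077 to 0.20 (Rcan2), -0.00061 to 0.30 (Ncam1), -0.28 to 0.13 (Acta2), -1.36 to 0.80 (Rgs5) and -0.015 to 0.42 (Col18a1). Causes were not tested. With 2 mice per genotype the spread rests on few values, and genes with few UMIs, such as Tubb3 and Foxm1, have wide errors.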
